A study of Mus musculus with 12 samples.

Results

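The 52 genes described here encode proteins of mitosis and cytokinesis, the steps in which a cell condenses its duplicated chromosomes, pulls them apart on a spindle and then divides its cytoplasm. They were taken by name from a written list of the best-known genes of these steps, drawn up with earlier results of these data known, and all 52 were found under exactly 1 identifier each among the 47069 mouse genes of the count table. The list falls into 8 role groups: 9 kinases, cyclins and activators of mitotic entry, 4 subunits of the chromosomal passenger complex, 4 proteins of the spindle assembly checkpoint, 7 of the centromere and kinetochore, 9 spindle motors and spindle-binding proteins, 6 proteins that act on or with the anaphase-promoting complex (securin, separase and sister cohesion included), 7 condensin and mitotic chromosome proteins, and 6 proteins of cytokinesis.

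The libraries came from mouse liver cancer organoids, grown from tumors that had been induced with the carcinogen diethylnitrosamine in C57BL/6 mice of the genotype LGR5-DTRGFP+. In these mice GFP and the diphtheria toxin receptor are driven by the *Lgr5* promoter, so GFP fluorescence stands in for LGR5, a receptor that marks stem cells of several epithelia. Cells were sorted into GFP-positive (LGR5+) and GFP-negative (LGR5-) populations after dead cells and CD45-positive leucocytes had been gated out, either untreated or after treatment with 5-FU (5-fluorouracil), an inhibitor of thymidylate synthase that is also built into RNA and DNA. Both populations were sequenced from untreated and from 5-FU-treated organoids, with 3 libraries for each of the 4 groups. All groups share the strain, the reporter genotype and the tumor origin. Neither the dose nor the duration of 5-FU for these cells, nor the number of mice, tumors or organoid lines behind the 3 replicates, was stated in the sources used here, and the p-values therefore measure the spread between these libraries, which may be technical.

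Between 13750591 and 19323514 reads were counted on genes per library, and 3 reads, the limit that a count of 0 allows, came to 0.165 to 0.22 CPM, the count relative to a library size scaled by TMM. Mitochondrial genes took 1.47% to 3.08% of the reads in 10 libraries, but 6.93% in untreated and 6.44% in 5-FU-treated LGR5- replicate 3. *Lgr5* mRNA did not separate the sorted populations. The untreated LGR5- libraries held 27.5, 23.0 and 36.0 CPM against 27.5, 23.3 and 26.2 CPM in LGR5+, and the treated ones 21.1, 18.3 and 35.9 CPM against 27.0, 26.8 and 27.2 CPM, so that the names of the populations rest on the GFP sort alone. Of 8 hepatocyte markers 5 held at most 3 reads in every library, *Alb* reached 1.86 CPM at most, and *Cyp3a11* and *Serpina1a* were at 0 throughout. *Afp*, the fetal liver and liver tumor marker of that list, was the exception at 9.88 to 54.3 CPM, and it rose with 5-FU by 1.31 in LGR5+ (adjusted p = 0.0177) and 1.43 in LGR5- cells (adjusted p = 0.0118) on the log2 scale. All 5 general epithelial markers and all 8 markers of alveolar type 2 cells of the lung were over 3 reads in every library, with *Sftpc* at 2619 to 17335 CPM. The summed level of the epithelial markers was 3095 to 4259 CPM in untreated and 4955 to 15630 CPM in 5-FU-treated libraries. *Krt8*, *Krt18* and *Krt19* rose in both populations and *Cdh1* in LGR5+ cells, while *Epcam* passed the threshold in neither. Of the leukocyte, fibroblast and endothelial markers, 3 of 6, 3 of 8 and 3 of 6 held at most 3 reads in every library, and *Cd3e*, *Lum* and *Emcn* were at 0. The summed level of 8 cholangiocyte markers was 2388 to 3112 CPM in untreated and 3425 to 11895 CPM in 5-FU-treated libraries, that of 8 macrophage markers 31.7 to 65.9 CPM and 45 to 113 CPM, and that of the 8 alveolar type 2 markers 3592 to 17552 CPM and 3117 to 6506 CPM. Nearly all of the last sum was *Sftpc*, whose change with 5-FU did not pass the threshold (-1.03, adjusted p = 0.228, in LGR5+ and -1.26, adjusted p = 0.147, in LGR5- cells), whereas *Sftpd* rose in both populations (2.69 and 2.48 on the log2 scale), *Lamp3* in LGR5+ (1.19) and *Napsa* in LGR5- cells (1.51). The macrophage sum was nearly all *Cd68* and *Cd14*. *Cd68* rose by 2.06 in LGR5+ and 1.95 in LGR5- cells on the log2 scale, and the change of *Cd14* did not pass the threshold. The other macrophage markers reached 0.807 CPM at most. The part of these differences in the results that follow was not tested.

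Mitosis begins when CDK1 bound to cyclin B phosphorylates its targets, and it ends when the anaphase-promoting complex, a ubiquitin ligase, has cyclin B and securin destroyed. Most of the genes involved are transcribed in a wave in the G2 phase of the cell cycle. Many of their promoters hold a cell cycle genes homology region (CHR), which binds the MuvB core of the DREAM and MYB-MuvB complexes, together with CCAAT boxes, the binding site of NF-Y. An organ or tumor in which many cells divide is therefore rich in these mRNAs, and *Mki67* and *Top2a* are widely used as marks of proliferation.

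Promoter windows of 250 bases before to 50 bases after the start site were available from RefSeq (GRCm38.p6) for 43 of the 52 genes, with 45 windows in all. Either strand was searched for the CHR letters TTTGAA and TTTAAA and for CCAAT. None of these motifs contains another, but neighbouring matches can share bases, as CCAAT boxes on opposite strands did in *Ube2c*. TTTGAA was present in 36 of the 45 windows (80.0%) against 5878 of 32851 windows of all genes (17.9%), TTTAAA in 10 (22.2%) against 13.2%, and CCAAT in 35 (77.8%) against 37.4%. At least 1 CHR spelling together with CCAAT was found in 33 windows (73.3%) against 10.7%. Among the genes with a window, *Bub1*, *Mad2l1*, *Ncaph*, *Nek2*, *Nuf2* and *Pttg1* had neither CHR spelling. The matches lay close to the start site: between 100 bases before and 50 bases after it, a span chosen after the positions had been seen, TTTGAA was present in 77.8% of these windows against 8.20% of all, and CCAAT in 68.9% against 23.6%. A match of letters is a description of the sequence and does not show that a factor binds there.

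As examples, 100 bases are printed for 6 genes in which this stretch held both elements. It ends just before the most upstream start annotated in RefSeq or GENCODE M21. Relative to the RefSeq start used above, the last printed base was at -9 in *Cdc20*, -26 in *Cdk1* and -115 in *Ncapd2*. Bases after the start, where TTTGAA was common, are not shown. Further genes, such as *Espl1*, *Kif22* and *Ube2c*, held both elements within the 100 bases before the RefSeq start. The sequences are from RefSeq (GRCm38.p6), 5′ to 3′ on the gene's strand, with the letters of CHR elements and CCAAT boxes, or of their reverse complements TTCAAA and ATTGG, in capitals.
Cdc20, chr4:118437353-118437452, minus strand: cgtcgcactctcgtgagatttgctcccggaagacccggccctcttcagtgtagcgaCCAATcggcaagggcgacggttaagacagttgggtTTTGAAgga
Cdk1, chr10:69352939-69353038, minus strand: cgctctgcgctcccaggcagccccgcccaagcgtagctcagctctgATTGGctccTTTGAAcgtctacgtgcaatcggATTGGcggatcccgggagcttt
Kif11, chr19:37376282-37376381, plus strand: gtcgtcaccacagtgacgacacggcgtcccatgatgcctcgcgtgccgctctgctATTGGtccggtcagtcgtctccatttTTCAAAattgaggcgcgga
Ncapd2, chr6:125191702-125191801, minus strand: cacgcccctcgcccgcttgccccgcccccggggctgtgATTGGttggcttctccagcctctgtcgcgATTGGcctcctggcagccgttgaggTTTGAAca
Plk1, chr7:122159335-122159434, plus strand: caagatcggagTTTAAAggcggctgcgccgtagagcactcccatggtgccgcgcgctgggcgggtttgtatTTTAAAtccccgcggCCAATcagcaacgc
Top2a, chr11:99024190-99024289, minus strand: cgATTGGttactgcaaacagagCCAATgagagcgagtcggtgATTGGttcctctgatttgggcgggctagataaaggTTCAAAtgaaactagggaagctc
Within the printed stretches, a CHR of *Cdk1* lay between 2 inverted CCAAT boxes. That of *Ncapd2* lay downstream of 2 boxes and that of *Top2a* downstream of 3. Further TTTGAA matches outside the stretches were centred at -12 in *Cdk1* and -176 in *Top2a* relative to the RefSeq start. *Plk1* showed the TTTAAA spelling in its stretch, with its TTTGAA 33 bases after the RefSeq start. The TTTGAA of *Ncapd2*, at -120, lay upstream of the span counted above.

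**Figure D1:**
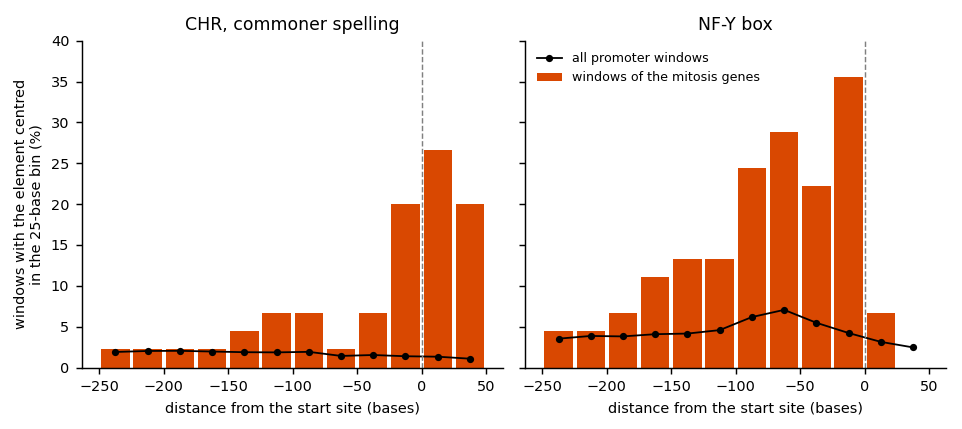
Share of promoter windows (%) with the CHR spelling TTTGAA (left) or an NF-Y box (right) centred in each 25-base bin, against the distance from the annotated start site in bases. Bars show the 45 windows of the mitosis genes and the line all 32851 windows, and the bars exceed the line most from 25 bases upstream of the start onward for this spelling, where 20.0% to 26.7% of windows hold one.

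Treatment with 5-FU lowered the mitotic genes as a group in both sorted populations. Together the 52 genes took 0.733%, 0.611% and 0.619% of all counted reads in the 3 libraries of untreated LGR5- cells, and for LGR5+ cells these shares were 0.716%, 0.764% and 0.878%. After 5-FU they took 0.332%, 0.214% and 0.171% in LGR5- and 0.431%, 0.253% and 0.195% in LGR5+ libraries. Every treated library thus lay below every untreated one, and among the treated libraries that numbered 1 held the largest share in both populations.

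**Figure D2:**
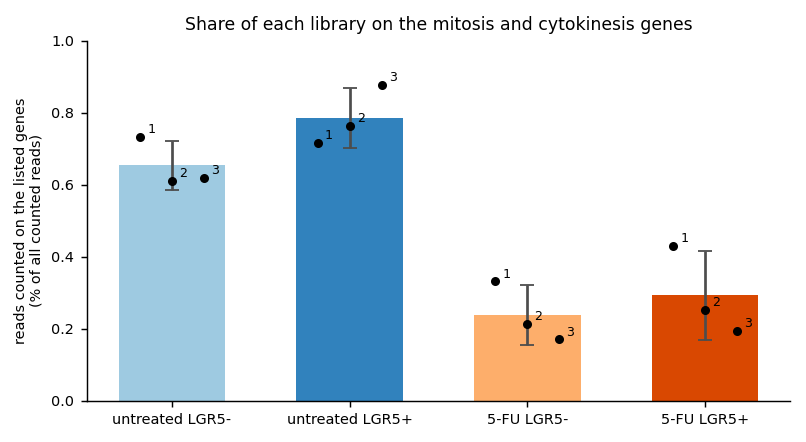
Reads counted on the 52 genes as a percentage of all counted reads, by group. Bars are means of 3 libraries with the SD as error bar, dots are libraries with their replicate number, and all treated libraries (0.171% to 0.431%) lie below all untreated ones (0.611% to 0.878%).

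In LGR5+ cells 47 of the 52 genes fell and none rose at an adjusted p under 0.05, against 6.37% of the 16157 genes tested that fell in this comparison. The median log2 fold change of the 52 was -1.39, or 2.61-fold lower, with a range of -2.05 to -0.65, while the median of all genes tested was -0.02. An unadjusted p under 0.05 was reached by 51 of them, against 30.1% of all genes in either direction. With the thresholds used in the study, which ask for a log2 fold change beyond 1.5 in either direction and an unadjusted p under 0.05, 18 were lower, against 2.81% of all genes. The 5-FU libraries were all below the untreated ones for 49 genes, against 20% of all genes, and *Spc25*, *Ckap2* and *Kif20a* were the exceptions. This count of called genes depended on single libraries, as it was 31 without untreated LGR5+ replicate 3, 27 without 5-FU LGR5+ replicate 2 and 26 without 5-FU LGR5+ replicate 3. Without 5-FU LGR5+ replicate 1 it was 50, and the median log2 fold change was -1.84.

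In LGR5- cells 50 of the 52 genes fell and none rose, against 7.11% of all genes tested that fell. The median log2 fold change was -1.68, or 3.20-fold lower, with a range of -2.21 to -0.65, while the median of all genes was -0.05. All 52 had an unadjusted p under 0.05, against 28.7% of all genes in either direction. By the thresholds of the study 33 were lower, against 2.75% of all genes. For 51 genes the treated libraries were all below the untreated ones, against 13.4% of all genes, with *Ckap2* as the exception. Leaving out 1 library at a time gave 36 to 51 genes that fell. In a bulk library, fewer dividing cells and less mitotic mRNA per dividing cell cannot be told apart. *Ckap2* and *Anln* did not pass the threshold in LGR5- cells, and *Nek2*, *Ndc80*, *Spc25*, *Ckap2* and *Kif20a* did not in LGR5+ cells.

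**Figure D3:**
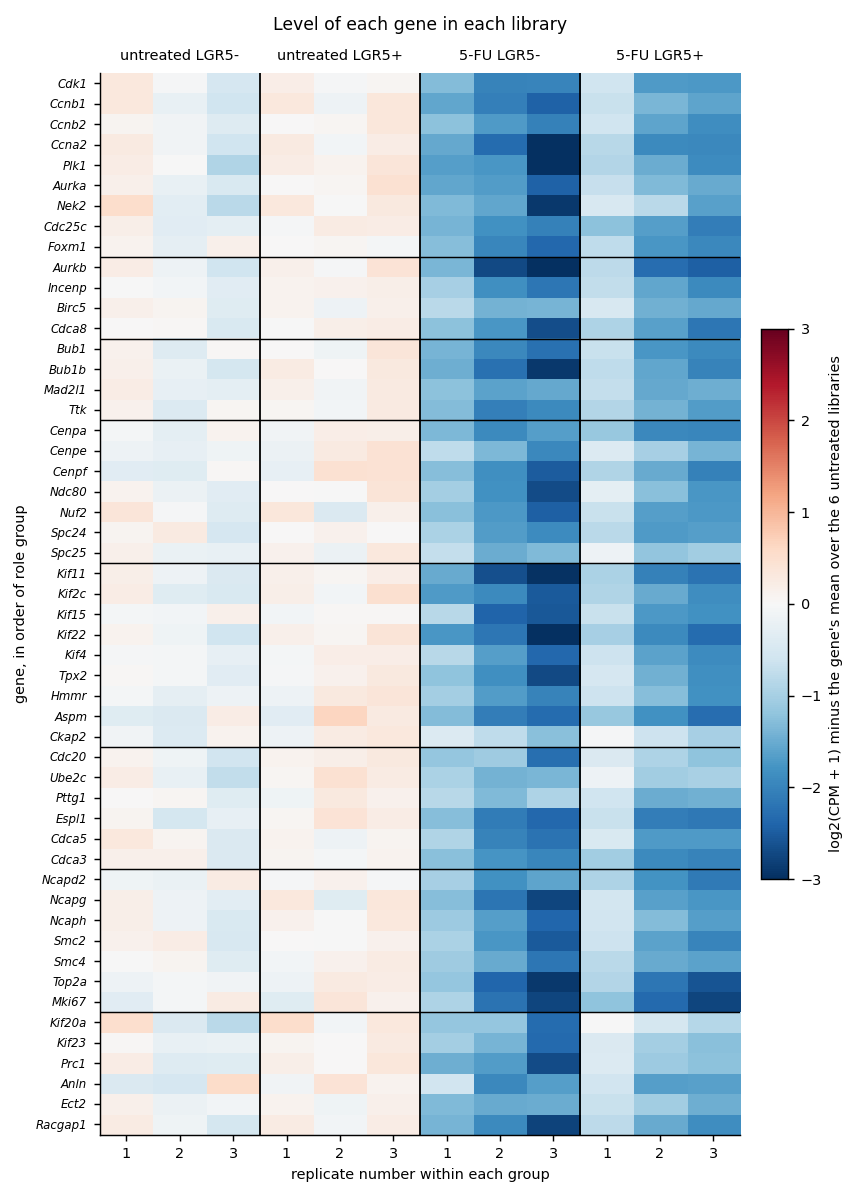
Level of each of the 52 genes (rows, in order of role group, divided by lines) in each of the 12 libraries (columns), as log2(CPM + 1) minus the gene's mean over the 6 untreated libraries. Blue is lower and red higher; the treated libraries numbered 1 are the palest of the blue columns in both populations.

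All 9 genes of mitotic entry fell in LGR5- cells and 8 of 9 in LGR5+ cells, with median log2 fold changes of -1.76 and -1.40. *Cdk1*, the kinase that drives entry into mitosis, was at 590.3, 464 and 333 CPM in untreated LGR5- libraries, and the LGR5+ libraries held 544, 461 and 495 CPM. After 5-FU it was at 193, 117 and 119.8 CPM and 311, 145 and 143 CPM. The groups did not overlap, and its log2 fold change was -1.69 ± 0.32 (SE) in LGR5- cells (adjusted p = 0.00294) and -1.33 ± 0.32 in LGR5+ cells (adjusted p = 0.0103). *Ccnb1*, which encodes cyclin B1, the partner of CDK1, went from 293, 199 and 153 CPM to 78.5, 56.0 and 42.7 CPM in LGR5- cells, a log2 fold change of -1.86 ± 0.31 (adjusted p = 0.00110). In LGR5+ cells it went from 293, 209.8 and 299 CPM to 146, 89.3 and 77.7 CPM, a log2 fold change of -1.36 ± 0.30 (adjusted p = 0.00665). Processed pseudogenes of more than 95% identity to *Ccnb1* exist in the annotation, but the 2 in the table held 302 and 127 reads over all libraries against its 33115. The other B-type cyclin of the list, *Ccnb2*, fell in both populations (-1.5 ± 0.30 and -1.40 ± 0.30), as did *Ccna2*, cyclin A2, at -2.10 ± 0.39 and -1.63 ± 0.38.

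*Cdc25c*, the phosphatase that removes the inhibitory phosphates of CDK1, was the gene of the group that fell most in LGR5+ cells, from 35.2, 42.8 and 42.1 CPM to 14.8, 10.8 and 7.72 CPM. Its log2 fold change there was -1.85 ± 0.25, with the lowest adjusted p of all 52 genes in that comparison (0.000185), and in LGR5- cells it was -1.68 ± 0.25 (adjusted p = 0.000537). *Foxm1*, a transcription factor of the G2 wave, was at 21.1, 16.0 and 21.7 CPM and 7.42, 4.27 and 3.01 CPM before and after 5-FU in LGR5- cells and at 19.6, 20.4 and 18.7 CPM and 11.1, 5.12 and 4.38 CPM in LGR5+ cells. All its treated libraries were below all its untreated ones. *Plk1* and *Aurka*, kinases of spindle assembly, fell in both, *Plk1* with -1.90 ± 0.37 and -1.61 ± 0.36 and *Aurka* with -1.73 ± 0.28 and -1.33 ± 0.27 in LGR5- and LGR5+ cells. *Nek2*, a centrosome kinase, gave -1.12 ± 0.42 in LGR5+ cells and missed the threshold there (adjusted p = 0.0845).

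All 4 subunits of the chromosomal passenger complex, which corrects faulty attachments of chromosomes to the spindle, fell in both populations. *Aurkb*, the kinase of the complex, was at 157, 121 and 88.7 CPM in untreated and 51.1, 19.7 and 10.2 CPM in treated LGR5- libraries, and at 149, 131 and 179 CPM and 77.7, 26.6 and 23.7 CPM in LGR5+ libraries. Treated replicate 1 stood well above the other two in both populations, and the standard errors of this gene were the widest of the list: -2.17 ± 0.56 in LGR5- (adjusted p = 0.0201) and -1.84 ± 0.55 in LGR5+ cells (adjusted p = 0.0387). The call of *Aurkb* was lost in 6 of 15 other settings in each population, with adjusted p-values of 0.0577 to 0.0992 in LGR5- and 0.0713 to 0.148 in LGR5+ cells. Single libraries whose omission lost it were untreated replicates 1 and 2 and treated replicates 2 and 3 in LGR5- cells, and all 3 untreated and treated replicates 2 and 3 in LGR5+ cells. *Birc5*, which encodes survivin, changed less, with -1.17 ± 0.28 and -1.12 ± 0.28, and *Cdca8* (borealin) gave -1.67 ± 0.34 and -1.64 ± 0.34. *Incenp*, the scaffold, gave -1.48 ± 0.31 and -1.49 ± 0.31.

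The spindle assembly checkpoint delays anaphase until every chromosome is attached, and all 4 of its listed genes fell in both populations, with median log2 fold changes of -1.80 in LGR5- and -1.45 in LGR5+ cells. *Bub1b* (BUBR1), part of the inhibitor of the anaphase-promoting complex, was at 58.8, 45.8 and 36.4 CPM and 18.2, 10.4 and 6.24 CPM before and after 5-FU in LGR5- cells, a log2 fold change of -2.01 ± 0.37 (adjusted p = 0.00245). In LGR5+ cells it was at 62.0, 52.9 and 64.9 CPM and 30.6, 17.2 and 12.3 CPM, a log2 fold change of -1.58 ± 0.36 (adjusted p = 0.00782). The kinase gene *Bub1* gave -1.84 ± 0.33 and -1.47 ± 0.32. *Mad2l1*, the most abundant of the group per kilobase of transcript, gave -1.37 ± 0.24 and -1.30 ± 0.24, and the kinase gene *Ttk* (MPS1) -1.77 ± 0.27 and -1.44 ± 0.26.

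Of the 7 genes of the centromere and kinetochore, the structure that binds spindle microtubules, 7 fell in LGR5- and 5 in LGR5+ cells. *Cenpa*, the histone H3 variant that marks the centromere, was at 236, 201 and 266 CPM and 231, 285 and 280.0 CPM in LGR5- and LGR5+ libraries without treatment and at 96.3, 64.8 and 77.7 CPM and 111, 64.4 and 63.4 CPM after 5-FU. It was 1 of the genes that fell more in LGR5+ (-1.73 ± 0.24, adjusted p = 0.000231) than in LGR5- cells (-1.56 ± 0.24, adjusted p = 0.000689), a difference within the standard errors. *Spc24* and *Spc25* encode partners that anchor the NDC80 complex to the chromosome, and in LGR5- and LGR5+ cells *Spc24* gave -1.45 ± 0.29 and -1.40 ± 0.29 and *Spc25* -1.06 ± 0.28 and -0.84 ± 0.28. *Spc25* was at 133, 106 and 150.5 CPM in untreated and 108, 52.7 and 57.8 CPM in treated LGR5+ libraries, with treated replicate 1 inside the untreated range, and it missed the threshold there (adjusted p = 0.0529). So did *Ndc80* itself (-1.15 ± 0.40, adjusted p = 0.0674), whose treated LGR5+ libraries were at 35.0, 17.7 and 12.3 CPM against 43.9, 43.0 and 57.2 CPM untreated. *Cenpe*, a kinetochore motor, gave -1.12 ± 0.29 and -1.09 ± 0.29, *Cenpf* -1.59 ± 0.33 and -1.67 ± 0.33, and *Nuf2* -1.80 ± 0.35 and -1.33 ± 0.35.

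The spindle motors and spindle-binding proteins held both the gene that fell most in LGR5- cells and the one that changed least in either population, and 8 of 9 fell in each. *Kif11* (Eg5), the motor that pushes spindle poles apart, was at 58.4, 46.0 and 37.7 CPM in untreated and 17.4, 7.44 and 5.72 CPM in treated LGR5- libraries, a log2 fold change of -2.21 ± 0.40 (adjusted p = 0.00249). In LGR5+ cells it was at 56.9, 53.6 and 59.1 CPM and 26.1, 11.8 and 10.3 CPM, a log2 fold change of -1.81 ± 0.39 (adjusted p = 0.00602). *Kif22*, a motor on chromosome arms, gave -2.09 ± 0.36 and -1.87 ± 0.35. *Aspm*, a protein of the spindle poles, was among the 5 genes that fell most in LGR5+ cells (-1.97 ± 0.35, adjusted p = 0.00168), from 51.6, 102 and 78.5 CPM to 29.2, 17.7 and 12.6 CPM, and gave -1.72 ± 0.35 in LGR5- cells. *Hmmr* gave -1.37 ± 0.30 and -1.36 ± 0.30. *Ckap2*, a microtubule-binding protein, was at 83.1, 66.7 and 95.1 CPM and 66.9, 52 and 37.0 CPM in LGR5- and at 80.0, 105 and 111 CPM and 86.9, 57.8 and 43.7 CPM in LGR5+ libraries. Treated and untreated libraries overlapped in both, and the log2 fold changes of -0.65 ± 0.27 (adjusted p = 0.117) and -0.65 ± 0.26 (adjusted p = 0.111) did not pass the threshold. The remaining motors and binding proteins (*Kif2c*, *Kif15*, *Kif4* and *Tpx2*) fell by log2 fold changes of -1.92 to -1.31.

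All 6 genes that act on or with the anaphase-promoting complex fell in both populations. They include the most abundant mRNA of the list per kilobase, *Ube2c*, the ubiquitin-conjugating enzyme of that complex, at a mean of 514 CPM per kilobase over all libraries. Its CPM went from 746, 543 and 380.3 to 327, 236 and 245 in LGR5- and from 658, 873 and 749 to 574, 308 and 324 in LGR5+ libraries, log2 fold changes of -1.05 ± 0.29 (adjusted p = 0.0240) and -0.92 ± 0.29 (adjusted p = 0.0421), so it changed less than most. *Cdc20*, the activator of the complex at anaphase, gave -1.25 ± 0.29 and -1.02 ± 0.29. The call of *Ube2c* was lost in 5 of 15 other settings in each population, and that of *Cdc20* in 5 of 15 in LGR5+ cells. *Pttg1*, which encodes securin, the inhibitor of separase, gave -0.94 ± 0.25 and -1.23 ± 0.25, and *Espl1*, which encodes separase itself, -1.78 ± 0.41 and -1.82 ± 0.41. *Cdca5* (sororin), which protects sister cohesion, and *Cdca3* fell by 1.69 and 1.63 on the log2 scale in LGR5- and by 1.23 and 1.64 in LGR5+ cells.

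The 7 condensin and mitotic chromosome genes all fell in both populations. *Mki67* encodes Ki-67, which coats mitotic chromosomes, and was the gene that fell most in LGR5+ cells, from 116, 194 and 164 CPM to 64.0, 29.0 and 21.5 CPM (log2 fold change -2.05 ± 0.47, adjusted p = 0.00874). In LGR5- cells it went from 119, 145 and 178 CPM to 78.2, 31.5 and 21.5 CPM (-1.75 ± 0.46, adjusted p = 0.0209), and here again both treated libraries numbered 1 held the highest level. The call of *Mki67* in LGR5- cells was lost in 7 of 15 other settings (adjusted p = 0.0573 to 0.194), among them those without untreated replicate 2 or 3 or treated replicate 2 or 3. *Top2a*, the topoisomerase that untangles sister chromatids, was at 327, 351 and 340.1 CPM and 165, 69.8 and 48.8 CPM in LGR5- and at 330.1, 441 and 426 CPM and 198, 81.2 and 59.6 CPM in LGR5+ libraries, with log2 fold changes of -1.84 ± 0.45 (adjusted p = 0.0131) and -1.82 ± 0.45 (adjusted p = 0.0129). Condensin I is built from *Smc2*, *Smc4*, *Ncapd2*, *Ncapg* and *Ncaph*, and its 5 genes fell by log2 fold changes of -1.94 to -1.44 in LGR5- and -1.60 to -1.28 in LGR5+ cells, the largest and smallest falls in LGR5+ cells being those of *Ncapd2* and *Ncaph*.

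Of the 6 cytokinesis genes 5 fell in each population. *Racgap1*, part of centralspindlin, the complex that sets the plane of division, was at 153, 118 and 89.1 CPM and 48.5, 33.4 and 17.8 CPM in LGR5- and at 153, 122 and 150.3 CPM and 74.3, 44.3 and 34.3 CPM in LGR5+ libraries (-1.85 ± 0.34, adjusted p = 0.00265, and -1.48 ± 0.34, adjusted p = 0.00827). Its partner motor *Kif23* gave -1.39 ± 0.29 and -1.0 ± 0.29, and *Ect2*, the exchange factor that switches on RhoA at the equator, -1.48 ± 0.21 and -1.11 ± 0.20. *Prc1*, which bundles the microtubules of the central spindle, gave -1.75 ± 0.31 (adjusted p = 0.00187) and -1.06 ± 0.30 (adjusted p = 0.0266). *Kif20a*, a motor of the central spindle, went from 60.7, 39.9 and 52.3 CPM to 42.0, 28.7 and 22.8 CPM in LGR5+ libraries, where the groups overlapped and the threshold was missed (-0.71 ± 0.36, adjusted p = 0.212), and from 59.5, 30.7 and 23.5 CPM to 18.3, 18.1 and 7.63 CPM in LGR5- libraries (-1.36 ± 0.37, adjusted p = 0.0239). *Anln*, an actin and septin scaffold of the cleavage furrow, gave -1.43 ± 0.42 in LGR5+ cells and missed the threshold in LGR5- cells (-1.30 ± 0.42, adjusted p = 0.0532).

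**Figure D4:**
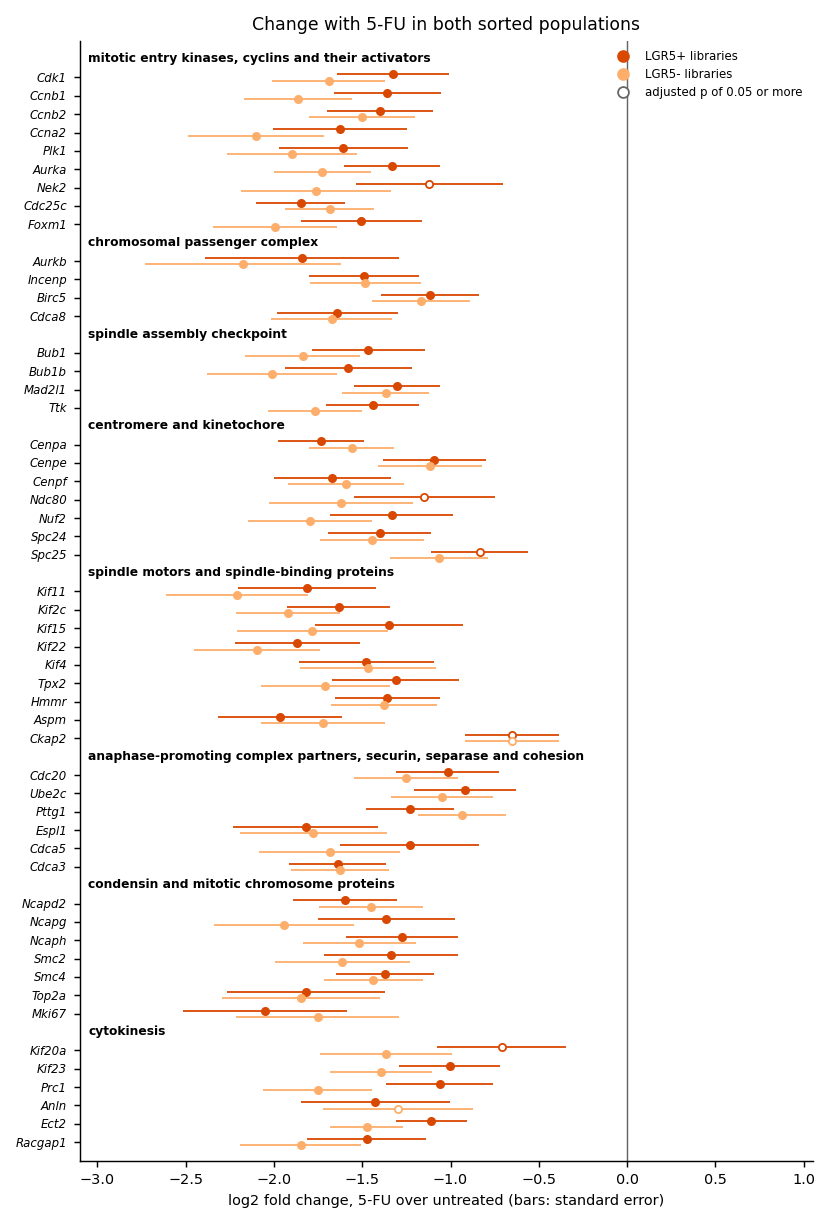
Log2 fold change of each gene with 5-FU in LGR5+ (dark) and LGR5- (light) libraries, in role groups, with the standard error as bar. Open points have an adjusted p of 0.05 or more (5 in LGR5+ and 2 in LGR5- cells), and every point lies below 0, between -2.21 and -0.65.

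Exons of 15 of the 52 genes share bases with those of another gene, mostly on the opposite strand, and whether counting used strand is not given in the sources used here. The shares of exon bases were 29.3% for *Kif20a* (with *Cdc23*), 22.8% for *Ube2c* (*Tnnc2*), 15.1% for *Kif4*, 13.4% for *Ncapg*, 12.7% for *Cdc25c*, 12.5% for *Ccna2*, 11.1% for *Prc1* and under 8% for the others, so the levels of the first 7 are the less certain ones.

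The level of the list was higher on average in LGR5+ than in LGR5- cells, but no gene passed the threshold in the unpaired fit of all 12 libraries. In untreated cells 49 of the 52 log2 differences, LGR5+ over LGR5-, were above 0 with a median of 0.25, and none had an adjusted p under 0.05 or an unadjusted p under 0.05 (edgeR; 1.32% of all genes reached the latter), nor an adjusted p under 0.05 with DESeq2, while 0% of all genes tested passed. An unadjusted p under 0.05 was reached by 6 genes with a block within each treatment and 2 without untreated LGR5- replicate 1. With a replicate block in all 12 libraries 1 gene reached it. *Incenp* was the gene whose untreated LGR5+ libraries were all above the LGR5- ones, 1 of 52 against 2.7% of all genes. The median for all genes was -0.02. Untreated LGR5- replicate 3, with the high mitochondrial share, held the lowest level of its group for 33 genes, and without it the median of the 52 was 0.16.

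After 5-FU the median difference was 0.45, again with 49 of 52 above 0. None had an adjusted p under 0.05 with edgeR or DESeq2 (lowest 0.344 and 0.121, both *Prc1*). Of all genes tested 0% passed with edgeR, whereas DESeq2 called 21 lower and 61 higher in LGR5+ cells. An unadjusted p under 0.05 was reached by 9 of the 52, a share near the 13% of all genes that reached it: *Prc1* (1.01 ± 0.31), *Kif20a* (1.08 ± 0.37), *Ccnb1* (0.82 ± 0.30), *Aurka* (0.73 ± 0.27), *Kif2c*, *Kif23*, *Nek2*, *Ect2* and *Bub1b*. The count of 9 depended on single libraries, as it was 35 without 5-FU LGR5- replicate 1 and 5 and 1 without replicates 2 and 3 of that group, and 2 and 22 without 5-FU LGR5+ replicates 1 and 3. It was 4 with library size as the only scaling or in a fit of these 6 libraries, 21 with a replicate block in all 12 libraries and 31 with a block within each treatment. Without both LGR5- libraries numbered 3 it was 2. The treated LGR5+ libraries were all above the treated LGR5- ones for *Aurka*, *Kif20a* and *Prc1*, 3 of 52 against 14.2% of all genes. *Kif20a*, for which the values stand above, had its lowest treated LGR5+ library at 22.8 CPM and its highest treated LGR5- library at 18.3 CPM. *Mki67* (difference -0.20 ± 0.45), *Ncapd2* (-0.11 ± 0.29) and *Pttg1* (-0.10 ± 0.25) stood at the other end, followed by *Cenpa* (0.0026 ± 0.24).

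The replicate numbers were taken to pair the treated libraries, since libraries of the same number deviated together from their group means. The pairing was inferred from these same counts, and the sample titles do not state it. LGR5+ exceeded LGR5- in 51, 46 and 45 of the 52 genes in the pairs 1, 2 and 3, with medians of 0.58, 0.31 and 0.55 on the log2 scale, against 54.6%, 52.3% and 52.4% of all genes. In pair 3 the mitochondrial share was 6.44% in the LGR5- and 1.84% in the LGR5+ library, and its part was not tested. In a paired fit of these 6 treated libraries alone, with the replicate number as a block, 9 genes were higher in LGR5+ cells and none lower at an adjusted p under 0.05, against 1.41% of the 15196 genes tested that were higher: *Kif20a* (1.06 ± 0.18, adjusted p = 0.0249), *Prc1* (0.99 ± 0.17, 0.0270), *Nek2* (0.94 ± 0.16, 0.0270), *Ccnb1* (0.74 ± 0.13, 0.0280), *Bub1b*, *Ncapg*, *Ndc80*, *Aurka* and *Ccna2*. This fit was added after the data had been seen. *Kif20a*, *Prc1*, *Ncapg* and *Ccna2* are among the genes whose levels are less certain because of shared exon bases. With a block in the fit of all 12 libraries none passed, whether 1 block served both treatments (lowest adjusted p 0.174) or each treatment had its own (0.0949). Without 5-FU LGR5+ replicate 1 the median difference of the 52 genes was 0.0048, and without 5-FU LGR5- replicate 1 it was 0.80, a size that depended on the libraries numbered 1. In the untreated groups, where the numbers were not taken to pair the libraries, LGR5+ exceeded LGR5- in 13, 44 and 47 of the 52 genes. The untreated LGR5- library numbered 3 held the 6.93% mitochondrial share.

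**Figure D5:**
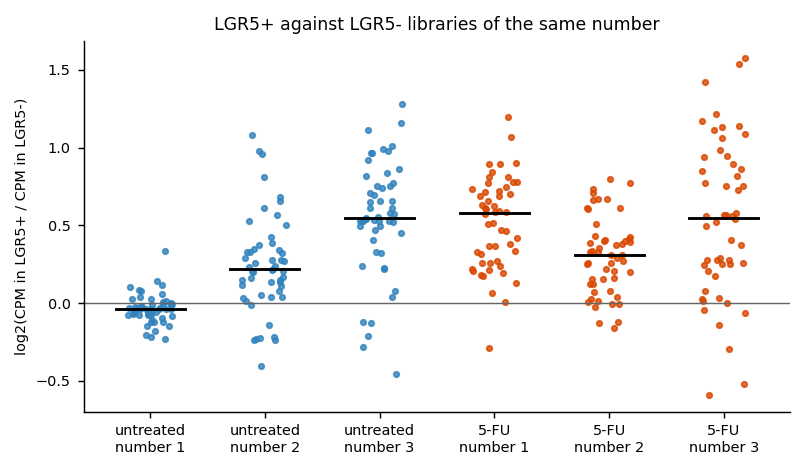
Log2 ratio of CPM, LGR5+ over LGR5- library of the same replicate number, for untreated (blue) and 5-FU-treated (orange) pairs. Each dot is 1 of the 52 genes and each line the median, which is -0.04, 0.22 and 0.55 in the untreated and 0.58, 0.31 and 0.55 in the treated pairs.

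Whether the fall with 5-FU differed between the populations was tested by the interaction. The median of the 52 differences in response (LGR5+ minus LGR5-) was 0.24 on the log2 scale, none had an unadjusted p under 0.05 with edgeR (1.57% of all genes did), none an adjusted p under 0.05 with edgeR or DESeq2 (lowest 0.9998 and 0.999), and 0% of all genes tested passed. An unadjusted p under 0.05 was reached by 4 genes without 5-FU LGR5- replicate 1 and by 3 with a block within each treatment. The lowest adjusted p in these edgeR fits was 0.979 and 0.88. The response was thus not shown to differ in size at this depth and number of libraries.

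The treated libraries of both populations held the genes of the list in nearly 1 order. In both treated groups the library numbered 1 was highest, for 52 of 52 genes in LGR5+ and 51 of 52 in LGR5- cells, and the library numbered 3 was lowest for 46 and 41. The order in the untreated groups held for fewer genes: LGR5- replicate 1 was again highest, for 35, and replicate 3 lowest, for 33, while LGR5+ replicate 3 was highest for 30 and replicates 1 and 2 lowest for 23 and 27. As a description over the 12 libraries, which span both treatments, the Pearson correlation of each gene with the mean of the list lay between 0.845 and 0.996, with a median of 0.974. In the same treated libraries the mitochondrial share was 3.08%, 2.0% and 6.44% in LGR5- and 1.47%, 1.62% and 1.84% in LGR5+ replicates 1, 2 and 3, and its part in the order was not tested.

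Other genes of mitosis, 113 written down in the same way as the 52 and all over the filter, fell less uniformly: 68 fell and 4 rose in LGR5+ cells, and 73 fell and 2 rose in LGR5- cells, where 9.66% and 8.3% of all genes tested rose, with median log2 fold changes of -1.03 and -1.09. Among 13 regulators of entry 10 and 11 fell, led in LGR5+ cells by *Plk4*, the kinase of centriole duplication (-1.62), and *Bora*, the activator of Aurora A (-1.36), while *Cdkn3* (-1.03) and *Wee1*, the kinase that holds CDK1 inactive (-0.91), fell least. Of 34 further centromere, kinetochore and checkpoint genes 25 and 28 fell, with *Kntc1* (-1.84) and *Knl1* (-1.79), both outer kinetochore proteins, at the low end. *Cenpt*, an inner kinetochore protein, rose by 1.34 (0.19 SE, adjusted p = 0.000231) in LGR5+ and 1.08 in LGR5- cells and was the only 1 of the 34 that rose in either. *Zw10* fell least of the 25 (-0.65).

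Of 25 spindle and centrosome genes 13 and 16 fell. *Spag5* (astrin) and *Troap* were lowest (-1.71 and -1.68 in LGR5+ cells), and *Tubg1*, gamma-tubulin, fell least (-0.85), and *Gtse1*, a microtubule-binding protein that also restrains p53, rose in both populations (1.03, adjusted p = 0.00557, and 0.80, adjusted p = 0.0258). Among 12 further cytokinesis genes 7 fell in each population, led by *Kif14*, a motor of the midbody (-2.20), and *Depdc1b* (-1.80) in LGR5+ cells. The ESCRT partners *Pdcd6ip* (ALIX, 0.94) and *Tsg101* (0.62), which also serve membrane sorting outside division, rose in LGR5+ cells, and gave 0.54 and 0.23 without passing the threshold in LGR5- cells. Of 15 other subunits and partners of the anaphase-promoting complex 5 fell in each population, with medians of -0.15 in LGR5+ and -0.43 in LGR5- cells over the 15. In LGR5+ cells they were led by its inhibitor *Fbxo5* (EMI1, -1.52) and its enzyme partner *Ube2s* (-1.09), and the subunits *Cdc26* (-0.68) and *Anapc1* (-0.62) fell least. Of 14 cohesin and condensin II genes 8 and 6 fell, with *Cdca2* (-1.72) and *Ncapg2* (-1.61) lowest in LGR5+ cells, and *Pds5b* (-0.76) and *Stag1* (-0.68) changed least among the called genes.

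Among 15 genes whose products regulate transcription of the mitotic genes (MuvB, DREAM, E2F and NF-Y subunits and B-MYB), 4 fell in LGR5+ and 5 in LGR5- cells and none rose. *Rbl1*, which encodes the pocket protein p107, gave -1.40 and -1.34, and *Tfdp2*, an E2F partner, -1.06 and -0.85. The MuvB subunits *Lin54* (-1.01 and -1.38) and *Lin9* (-0.76 and -0.90) fell in both populations. *Mybl2* (B-MYB) gave -1.34 (adjusted p = 0.0991) and -1.62 (adjusted p = 0.0522) and missed the threshold in both. The NF-Y subunits *Nfya*, *Nfyb* and *Nfyc* did not pass it either. Of 39 genes of DNA replication and the G1/S transition, 15 fell in LGR5+ and 31 in LGR5- cells, with all 39 log2 fold changes below 0 in both and medians of -1.06 and -1.42. *Pole*, the leading-strand polymerase, gave -1.86 and -2.16, and *Cdc7*, the kinase that fires origins, -1.71 and -1.88. *Pold1*, the catalytic subunit of the lagging-strand polymerase (-1.0), and *Rfc2*, a clamp loader subunit (-0.84), fell least of the 15 in LGR5+ cells. *Tyms*, which encodes thymidylate synthase, the enzyme that 5-FU inhibits, gave -1.04 (adjusted p = 0.0158) in LGR5+ and -1.38 (adjusted p = 0.00347) in LGR5- cells.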

How the data were processed

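Sorted cells were lysed and their RNA purified on small columns, SMARTer chemistry was used for amplification, and sequencing was paired-end. The authors deposited unnormalized read counts per Ensembl gene in a single table of the 12 libraries. Per the labels, the submitters' processing notes name HISAT2, HISAT, TopHat2, HTSeq and the mouse build mm8, and the strand setting of counting is not given in the sources used here. Of the 47069 identifiers, 46488 matched a symbol in GENCODE M21, from which transcript lengths and exon overlaps were also taken. The only positions given are those of the printed RefSeq promoter stretches. They and the exon overlaps are of another build than the notes name. Groups and replicate numbers were read from the sample titles.

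With R 4.3.3 and edgeR 4.0.16, genes were filtered by filterByExpr (16157 kept, all 52 members included), scaled by TMM and fitted by glmQLFit (robust) as 4 group means over all 12 libraries, with a biological coefficient of variation of 26.6%. The quasi-likelihood test was adjusted by Benjamini-Hochberg over the 16157 genes. The standard error is the log2 fold change divided by the square root of F. CPM are TMM-scaled, and levels are compared between genes only per kilobase of the principal transcript. Counting error only is covered by the limit of 3 reads. The script was checked on simulated counts.

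The replicate numbers were taken to pair libraries where the deviations from the group means correlated at over 0.1 for every number. This held for the treated populations (0.57, 0.22 and 0.30) and not for untreated populations (0.48, -0.12 and 0.22), nor for treated against untreated LGR5+ (-0.08, -0.17 and 0.02) or LGR5- libraries (0.05, 0.28 and 0.42).

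Alternatives were RLE size factors, library size only, a minimum of 10 reads in each library, dropping the filter, DESeq2 1.42.0, a fit of only the libraries compared, a replicate block, the thresholds of the study, and each library left out. Added after the data had been seen were a block in only the libraries compared, a block within each treatment, and a fit without both LGR5- libraries numbered 3.

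The members and the other lists were chosen with earlier results of these data known. Genes named with values were the 3 of each role group with the highest mean CPM per kilobase, the 5 lowest and 5 highest log2 fold changes of each 5-FU comparison, *Cdk1*, *Ccnb1*, *Mki67* and *Top2a*, and the 2 lowest and 2 highest called genes of each other list in LGR5+ cells. Further names, such as *Foxm1*, *Plk1*, *Aurka*, *Nek2*, *Ndc80*, *Ttk*, *Ect2*, *Anln*, *Espl1*, *Cenpf*, *Nuf2*, *Incenp*, *Tyms*, *Mybl2* and the NF-Y subunits, were added after the values had been seen.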

Additional observations from a re-analysis of the deposited data

How the results depend on the processing

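The fall of the mitotic genes with 5-FU kept its direction under every setting run. Only the thresholds of the study moved the number of genes called lower by over 1.5 times in both populations, to 18 of 52 in LGR5+ and 33 of 52 in LGR5- cells, since they ask for a log2 fold change beyond 1.5. Leaving out 1 library at a time gave 26 to 50 genes called lower and a median log2 fold change of -1.84 to -1.2 in LGR5+ cells, and 36 to 51 genes and a median of -2.02 to -1.39 in LGR5- cells. For LGR5+ against LGR5- cells after 5-FU it gave a median of 0.0048 to 0.80 with 0 genes called, in untreated cells 0.16 to 0.35, and for the difference between the responses, which was not called, -0.19 (without 5-FU LGR5+ replicate 1, a change of sign) to 0.53. These fits hold fewer libraries, and where 2 are left in a group their spread is pooled with that of the other groups. The paired analysis of the 6 treated libraries, with the replicate number as a block, called 9 genes higher in LGR5+ cells against 0 in the fit without it, and the cause was not tested. A replicate block in all 12 libraries called 51 genes lower in LGR5+ and 51 in LGR5- cells and changed no other call of a count. With no filter, which kept 27776 genes with at least 1 read, *Aurkb*, *Top2a* and *Mki67* missed the threshold in both populations, with adjusted p-values of 0.148, 0.0728 and 0.0560 for LGR5+ cells and 0.0992, 0.0817 and 0.115 for LGR5- cells, and so did *Kif20a* in LGR5- cells (0.124). Over the named genes and all settings, 830 values stayed on their side of the threshold, 86 no longer passed it and 14 newly did. Calls of named genes lost in 4 or more of 15 settings were those of *Aurkb*, *Ube2c* and *Cenpe* in both populations, *Cdc20*, *Kif23* and *Prc1* in LGR5+ and *Mki67*, *Top2a*, *Kif20a* and *Spc25* in LGR5- cells.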

Other observations

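Outside every list above, genes whose levels followed the mean of the 52 most closely over the 12 libraries were looked up, as a description with no test, since the libraries span both treatments. The highest Pearson correlations were those of *Pimreg* (0.997), *Sapcd2* (0.991) and *Ercc6l* (0.987), all of which are known from dividing cells, followed by *Rad9a* (0.984), a subunit of a DNA damage checkpoint clamp, and *Tinf2* (0.983), a subunit of the telomere-protecting shelterin complex. *Pimreg* was at a mean of 85.1 CPM in untreated LGR5- and 95.5 CPM in untreated LGR5+ cells, and at 22.6 CPM and 32.4 CPM after 5-FU. *Ercc6l*, an ATPase of chromatid bridges in anaphase, was at means of 10.4, 11.5, 2.25 and 3.46 CPM in the same order. *Alpl*, the tissue-nonspecific alkaline phosphatase, is not known as a gene of cell division and was also among the 10 most alike (0.982), with a log2 fold change of -2.05 in LGR5+ (adjusted p = 0.0106) and -2.42 in LGR5- cells (adjusted p = 0.00534). *Tubb5*, a beta-tubulin gene and also 1 of the 10, had means of 847 CPM and 956 CPM before and 261 CPM and 319 CPM after 5-FU.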
